A study of Mus musculus with 6 samples.

Results

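Heat shock proteins are chaperones that hold, fold and release other proteins, and 10 of their genes, whose products work outside the endoplasmic reticulum (ER), were followed in mouse liver RNA-seq. They were chosen by name, with earlier results of these data known, out of 23284 genes in the count files, as a contrast to the chaperones that fold secreted proteins inside the ER. They comprise the cytosolic HSP70 genes Hspa1a, Hspa1b and Hspa8, the HSP110 gene Hsph1, the J protein gene Dnajb1, the cytosolic HSP90 genes Hsp90aa1 and Hsp90ab1, the small heat shock protein gene Hspb1, and the mitochondrial pair Hspd1 and Hspe1. Of these, 9 had enough reads to be tested among 12453 genes, and Hspa1a did not.

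Livers came from male mice carrying floxed FXR (Nr1h4, the bile acid receptor), which were injected through the tail vein at 8 weeks of age with 2 adeno-associated viruses of serotype 8 (AAV8). One AAV8 delivered Cre recombinase, and the second delivered FXR, either wild-type (FXR-WT) or with tyrosine 67 changed to phenylalanine (Y67F-FXR). Both were driven by the TBG promoter, which is active in hepatocytes, so that FXR of other liver cells was not targeted. All mice were fed chow with 0.5% cholic acid (CA) for 6 h before the livers were taken, 4 weeks after injection. There were 3 FXR-WT and 3 Y67F-FXR libraries, numbered as replicates 1 to 3, and the floxed allele, the Cre virus and CA chow were common to all of them. Mice without the FXR viruses, or without CA chow, were not analysed here. The labels give each library its own number but do not say more about the animals, so p-values measure the spread between these libraries.

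Library totals lay between 19551113 and 22053320 reads, and the heat shock genes took from 0.267% to 0.389% of them. Levels are given as CPM, reads per 1e+06 reads of a library after scaling, and calls required an adjusted p below 0.05 (edgeR's quasi-likelihood test, Benjamini-Hochberg over 12453 genes) with more than a 1.5-fold change. Nr1h4 was at 186.5 ± 30.2 CPM in FXR-WT and 174.8 ± 9.84 CPM in Y67F-FXR livers (SD, n = 3 in this and all later group values). Those counts cannot separate the floxed gene from the transgene, so they do not check the deletion. The 7 measured hepatocyte markers were present at 99400 to 114000 CPM summed in FXR-WT and 97800 to 119000 CPM in Y67F-FXR livers, and none of them was called.

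Cytosolic HSP70 binds exposed hydrophobic stretches under ATP control, with J proteins delivering the substrate and HSP110 exchanging the nucleotide, while HSP90 finishes and holds clients such as kinases and nuclear receptors, often taking them over from HSP70 through cochaperones. Heat and other proteotoxic stress induce many of these genes through heat shock factor 1 (HSF1), which binds heat shock elements made of inverted GAA units. ER chaperones such as BiP are instead induced by the unfolded protein response, whose factors read an ER stress element.

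The promoters of the heat shock genes carry inverted GAA units in most cases, and a few are shown here beside that of an ER relative. RefSeq promoter windows of build GRCm38.p6 were found for 7 of the 10 genes, and the 250 bases before each start were searched on both strands for GAANNTTC and TTCNNGAA, the 2 ways in which neighbouring units can face each other. At least 1 match was held by 6 of the 7 genes, compared with 14.5% of all 27025 genes with a window. The capitals mark the matches, and for Hspa5, the ER relative, the capitals mark the ER stress element, CCAAT and CCACG spaced by 9 bases, which 0.13% of genes held.
Hspa1b, chr17:34959310-34959367, minus strand: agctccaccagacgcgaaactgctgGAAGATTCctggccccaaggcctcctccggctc
Hsph1, chr5:149636337-149636394, minus strand: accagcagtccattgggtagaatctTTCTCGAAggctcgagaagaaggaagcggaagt
Hspb1, chr5:135887777-135887854, plus strand: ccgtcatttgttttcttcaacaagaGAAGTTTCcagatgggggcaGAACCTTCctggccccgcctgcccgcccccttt
Hspe1, chr1:55088034-55088101, plus strand: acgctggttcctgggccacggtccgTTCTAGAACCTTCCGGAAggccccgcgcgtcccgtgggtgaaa
Hspa5, chr2:34772000-34772068, plus strand: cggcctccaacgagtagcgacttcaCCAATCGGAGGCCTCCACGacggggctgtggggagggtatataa

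The Hspe1 stretch lies between Hspe1 and Hspd1, which start head to head, and both windows read it, each on its own strand. It holds 2 overlapping runs of 3 units, GAANNTTC followed by NNGAA or the same on the other strand, the first beginning 89 bases before the Hspe1 start. Such a run was held by 0.514% of genes. In Hspb1 there were 2 matches, and in Hspa1b and Hsph1 there was 1. The Hspa1a window held the Hspa1b stretch unchanged at chr17:34972228-34972285 and differed from the Hspa1b window at 3 of 250 bases. Neither motif was found in the Dnajb1 windows, nor in those of Hspa5, Hsp90b1 and Dnajb11, and of these ER relatives Hsp90b1 held 2 ER stress elements, beginning at positions -212 and -107 from its start, and Dnajb11 none. A match is only a match of letters, and genes with matches had fold changes above and below 0 in the comparison described next.

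Fold changes of the heat shock genes lay on both sides of 0, and most did not pass the test. Between FXR-WT and Y67F-FXR livers 6 of the 9 tested genes had a fitted log2 fold change below 0 and 3 had one above 0. Only Hsph1 was called by the quasi-likelihood test, as lower in Y67F-FXR livers, in a comparison in which 0.972% of all tested genes were called and 0.426% were called lower. The groups did not overlap for 7 of the 9 genes (4 lower and 3 higher in Y67F-FXR livers), against 20.6% of all tested genes (10.5% lower and 10.2% higher). An unadjusted p under 0.05 was given to 5 lower and 3 higher genes of the 9 by the same edgeR test, against 6.67% and 6.75% of all tested genes. The median log2 fold change was -0.55 over the 9 genes (-0.29 without FXR-WT replicate 1) and 0.01 over all tested genes. In bulk liver RNA, fewer cells of a type and less RNA per cell cannot be told apart.

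**Figure D1:**
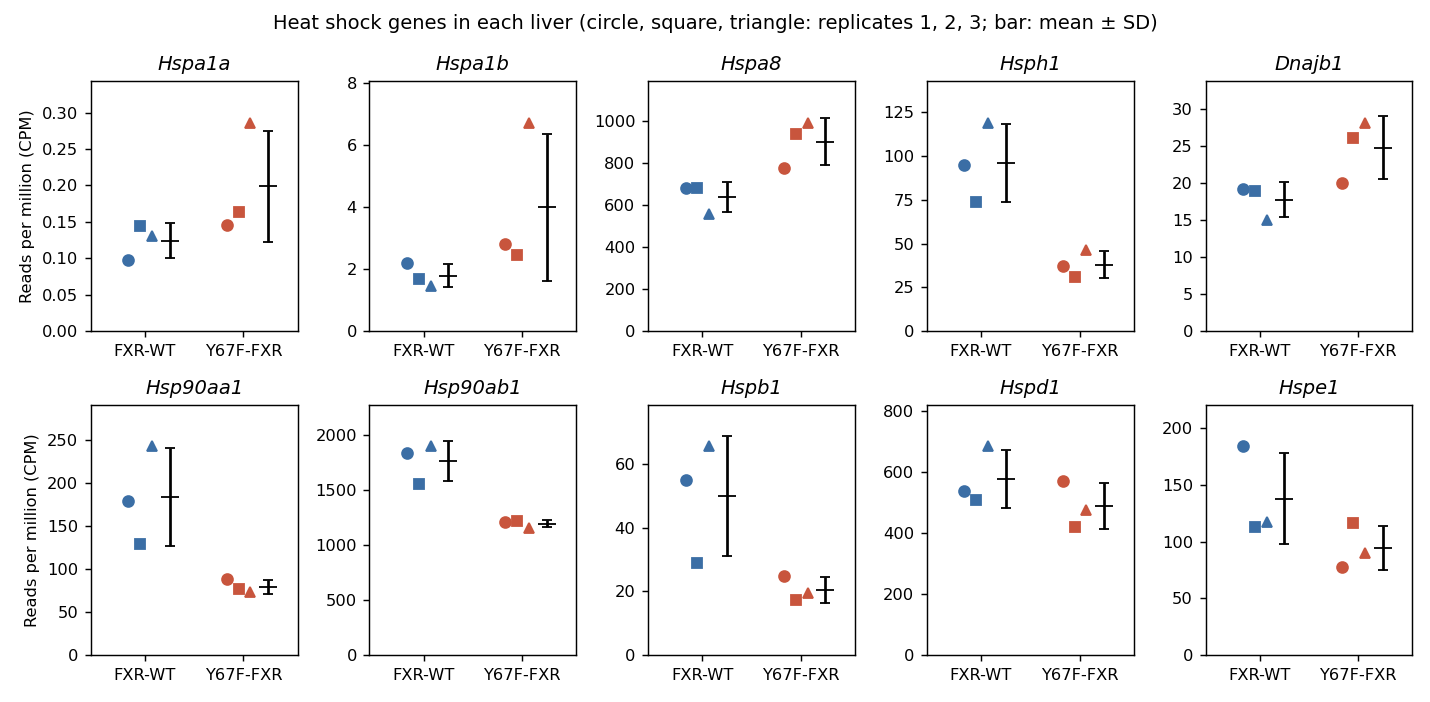
CPM of the 10 heat shock genes in each liver, with FXR-WT in blue and Y67F-FXR in red, replicates 1 to 3 as circle, square and triangle, and bars for the mean ± SD. Hspa8, Dnajb1 and Hspa1b lay higher in every Y67F-FXR liver, Hsph1, Hsp90aa1, Hsp90ab1 and Hspb1 lay lower in every one, and Hspd1 and Hspe1 overlapped; each panel has its own scale from 0.

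Hspa8 encodes HSC70, the constitutive cytosolic HSP70 that folds new proteins and uncoats clathrin vesicles (mm9 chr9:40609356-40613282, 9 exons). It stood at 682, 681 and 559 CPM in the FXR-WT livers and at 777, 938 and 993 CPM in the Y67F-FXR livers. Every Y67F-FXR liver was above every FXR-WT liver. The mean went from 640.3 ± 70.7 to 903.1 ± 112 CPM, a log2 fold change of 0.50 (SE 0.147) that did not pass the test (edgeR adjusted p = 0.184). Transcripts of other genes share 28.5% of its 100-base stretches, and reads that map to several places were not counted.

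Dnajb1 encodes HSP40, the J protein that hands substrates to HSP70 and stimulates its ATPase (mm9 chr8:86132074-86135802). Its levels were 19.3, 19 and 15.1 CPM in FXR-WT and 20.1, 26.2 and 28.2 CPM in Y67F-FXR livers. The groups did not overlap, although FXR-WT replicate 1 and Y67F-FXR replicate 1 lay close together. The log2 fold change was 0.48 (SE 0.17, edgeR adjusted p = 0.265). Its ratio to Hspa8, each level taken per length of exon, stayed between 0.0240 and 0.0264 in all 6 livers.

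Hspa1b and Hspa1a encode the stress-inducible HSP70 and lie 10120 bp apart on the minus strand of mm9 chr17, each with 1 exon. Hspa1b was near the bottom of the range of these genes, at 2.20, 1.70 and 1.47 CPM in FXR-WT and 2.82, 2.45 and 6.73 CPM in Y67F-FXR livers. The groups did not overlap, and Y67F-FXR replicate 3 stood far above the rest. The log2 fold change of 1.17 (SE 0.412, edgeR adjusted p = 0.263) was 0.57 when that liver was left out. Hspa1a had 2, 3 and 3 reads in FXR-WT and 3, 3 and 6 reads in Y67F-FXR livers, too few to test or to give a fold. Of the stretches of 100 bases in Hspa1b transcripts 49.9% also occur in transcripts of other genes, and for Hspa1a 56.5% do. Reads that map to several places were not counted for either gene.

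Hsph1 encodes HSP105, an HSP110 protein that exchanges nucleotide on HSP70 and helps to pull apart aggregates (mm9 chr5:150419420-150438890, 18 exons). It was at 95.1, 74.0 and 119 CPM in the FXR-WT livers and at 37.0, 30.9 and 46.2 CPM in the Y67F-FXR livers. The lowest FXR-WT liver was above the highest Y67F-FXR liver. Hsph1 fell from 95.97 ± 22.4 to 38.04 ± 7.66 CPM, 2.52-fold lower, with a log2 fold change of -1.33 (SE 0.213, edgeR adjusted p = 0.0357). The call did not hold when a liver was left out. The adjusted p was then 0.0746, 0.0507 and 0.105 without FXR-WT replicates 1 to 3 and 0.112, 0.0839 and 0.0904 without Y67F-FXR replicates 1 to 3, with log2 fold changes from -1.49 to -1.15. None of the 100-base stretches of Hsph1 transcripts occur in other genes.

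Set against its partner HSP70, Hsph1 was lower in every Y67F-FXR liver. The level of Hsph1 per length, divided by that of Hspa8, was 0.0844, 0.0658 and 0.129 in FXR-WT and 0.0288, 0.0199 and 0.0281 in Y67F-FXR livers. These groups did not overlap, and could not, because Hsph1 alone lay lower and Hspa8 alone higher in every Y67F-FXR liver. A two-sided exact permutation test over livers was thus fixed at p = 0.1, the smallest that 3 against 3 livers allow. It adds nothing to the values of the 2 genes.

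Hsp90ab1 encodes HSP90 beta, the constitutive cytosolic HSP90 (mm9 chr17:45704727-45710210), and had the most reads of the 10 genes. It stood at 1840, 1560 and 1900 CPM in FXR-WT and at 1210, 1220 and 1160 CPM in Y67F-FXR livers. The Y67F-FXR livers lay close together and below every FXR-WT liver. The mean went from 1768 ± 179 to 1195 ± 32.5 CPM, a log2 fold change of -0.57 (SE 0.126), which missed the threshold (edgeR adjusted p = 0.0969) and was smaller than the 1.5-fold minimum. Hsp90ab1 took 50.2% to 51.4% of the reads of the 10 genes in FXR-WT and 40.1% to 43.0% in Y67F-FXR livers. Because it weighs so much, the summed level of the 10 genes was 3472 ± 311 CPM in FXR-WT and 2847 ± 44 CPM in Y67F-FXR livers, but 1704 ± 132 and 1652 ± 71 CPM once Hsp90ab1 was taken out.

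Hsp90aa1 encodes HSP90 alpha, the more inducible cytosolic form (mm9 chr12:111929246-111934605). Its levels were 179, 129 and 243 CPM in FXR-WT and 89.0, 76.3 and 73.3 CPM in Y67F-FXR livers. FXR-WT livers varied widely for this gene (31.2% coefficient of variation) and Y67F-FXR livers little (10.5%), with no overlap. The log2 fold change was -1.21 (SE 0.225), just outside the threshold (edgeR adjusted p = 0.0576). The adjusted p was 0.0409 without FXR-WT replicate 2, but from 0.112 to 0.273 when any other liver was left out. Hsp90aa1 over Hsp90ab1 per length was 0.0860, 0.0725 and 0.113 in FXR-WT and 0.0650, 0.0550 and 0.0556 in Y67F-FXR livers, again without overlap (exact permutation p = 0.1). Transcripts of other genes share 38% of the 100-base stretches of Hsp90aa1 and 44% of those of Hspb1, described next, and reads that map to several places were not counted.

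Hspb1 encodes HSP25, a small heat shock protein that holds unfolded proteins without ATP and binds actin (mm9 chr5:136363789-136365433). It was at 55.1, 29.0 and 65.5 CPM in FXR-WT and at 24.9, 17.1 and 19.4 CPM in Y67F-FXR livers. FXR-WT replicate 2 lay close to the highest Y67F-FXR liver, and the groups did not overlap. The mean went from 49.91 ± 18.8 to 20.45 ± 4.01 CPM, a log2 fold change of -1.29 (SE 0.293) that did not pass the test (edgeR adjusted p = 0.1). Without FXR-WT replicate 2 the log2 fold change was -1.56 (adjusted p = 0.0409). With any other liver left out it lay from -1.45 to -1.04, with an adjusted p from 0.146 to 0.361.

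Hspd1 and Hspe1 encode mitochondrial HSP60 and its lid HSP10, which together enclose matrix proteins for folding. Their mm9 models on chr1 are 215 bp apart. Hspd1 was at 537, 508 and 683 CPM in FXR-WT and at 569, 419 and 476 CPM in Y67F-FXR livers. The groups overlapped, and the log2 fold change was -0.24 (SE 0.168, edgeR adjusted p = 0.630). It was -0.10 when FXR-WT replicate 3 was left out and -0.15 when Y67F-FXR replicate 2 was. Of its 100-base stretches 23.9% are shared with other transcripts. Hspe1 was at 184, 113 and 117 CPM in FXR-WT and at 77.8, 116 and 89.6 CPM in Y67F-FXR livers, again with overlap. Its log2 fold change was -0.55 (SE 0.228, edgeR adjusted p = 0.351), and -0.29 without FXR-WT replicate 1.

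Although they share a promoter region, Hspe1 and Hspd1 did not keep a fixed ratio. Hspe1 over Hspd1 per length was 1.04, 0.677 and 0.518 in FXR-WT and 0.415, 0.837 and 0.571 in Y67F-FXR livers. Hspe1 is short (768 bp of exon), and over 545 tested genes of 700 to 1000 bp the median deviation from the mean log2 level was 0.24, -0.03 and -0.22 in FXR-WT and -0.22, 0.29 and -0.01 in Y67F-FXR livers. The order of the livers is the same in both measures, within each group, and the part of gene length in the ratio was not tested. In a fit with gene length offsets the log2 fold change of Hspe1 stayed at -0.55 and did not pass the test (edgeR adjusted p = 0.0637). Hspb1 has 903 bp of exon, in the same class, while the other tested heat shock genes are longer, and the medians over 4306 genes of their length class lay from -0.04 to 0.03.

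**Figure D2:**
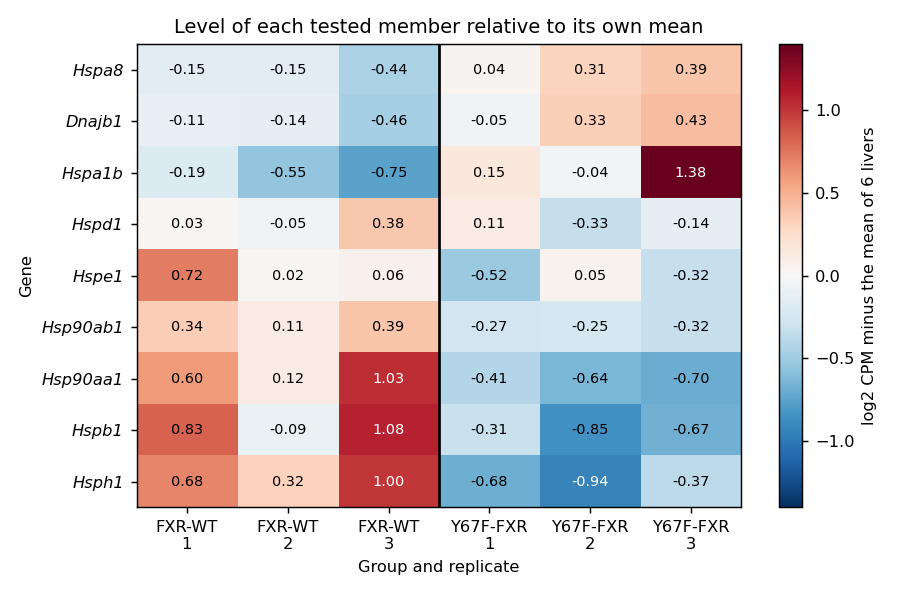
Log2 CPM of the 9 tested heat shock genes in each liver, minus the mean of that gene over the 6 livers, from blue (lower) to red (higher). Hspa8 and Dnajb1 run opposite to Hsp90ab1, Hsp90aa1, Hspb1 and Hsph1, and the deviation of 1.38 for Hspa1b in Y67F-FXR replicate 3 is the largest shown.

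Within the groups the genes also differed in steadiness. FXR-WT replicate 3 had the highest Hsph1, Hsp90aa1, Hsp90ab1, Hspb1 and Hspd1 of its group and the lowest Hspa8, Dnajb1 and Hspa1b. In Y67F-FXR livers, replicate 3 had the highest Hspa8, Dnajb1 and Hspa1b and the lowest Hsp90aa1 and Hsp90ab1. It also had the highest Hsph1, however, so that Hsph1 and Hsp90aa1 did not go together there. This is a description of 6 livers and was given no test.

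Ordered by level per length of exon (RPKM, CPM per kilobase of exon), FXR-WT livers ran from Hsp90ab1 at 705.2 ± 71.5 through Hspa8 at 304.3 ± 33.6, Hspd1 at 246.9 ± 40.3 and Hspe1 at 179.5 ± 52.0 to Hsp90aa1 at 64.5 ± 20.1 RPKM. Hspb1 at 55.3 ± 20.8, Hsph1 at 27.6 ± 6.44, Dnajb1 at 7.86 ± 1.03 and Hspa1b at 0.637 ± 0.133 RPKM followed. Neighbours whose ranges overlapped were Hspa8 and Hspd1, Hspd1 and Hspe1, Hsp90aa1 and Hspb1, and Hspb1 and Hsph1. In Y67F-FXR livers Hsp90ab1 at 476.6 ± 13.0 and Hspa8 at 429.2 ± 53.4 RPKM overlapped, as did Hsp90aa1 at 27.9 ± 2.94 and Hspb1 at 22.6 ± 4.44 RPKM, and Hsph1 at 10.94 ± 2.20 and Dnajb1 at 10.96 ± 1.87 RPKM.

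The contrast with ER folding capacity was drawn between relatives of the same protein family. The ER relatives were Hspa5 (BiP, the ER HSP70), Hsp90b1 (GRP94, the ER HSP90), Hyou1 (GRP170, the ER HSP110) and Dnajb11 (ERdj3, an ER J protein). Hspa5 fell from 1420 ± 370 to 443.2 ± 44.7 CPM, Hyou1 from 235.7 ± 51.5 to 67.75 ± 10.3 CPM and Dnajb11 from 165.3 ± 20 to 78.29 ± 8.37 CPM (log2 fold changes -1.68, -1.80 and -1.08, edgeR adjusted p = 0.0175, 0.0139 and 0.0210). Without Y67F-FXR replicate 3 the adjusted p of Hspa5 was 0.0771, and without FXR-WT replicate 3 it was 0.0614 for Hyou1 and 0.102 for Dnajb11. For Hsp90b1 the log2 fold change of -1.05 missed the threshold (adjusted p = 0.0722).

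Per length of exon, Hspa8 stood at 304.3 ± 33.6 and Hspa5 at 542.8 ± 142 RPKM in FXR-WT livers, and at 429.2 ± 53.4 and 169.4 ± 17.1 RPKM in Y67F-FXR livers. Of the 100-base stretches 28.5% are shared with other genes for Hspa8 and 0% for Hspa5. Reads that map to several places were not counted, and how many were lost was not measured. The difference in log2 CPM, Hspa8 minus Hspa5, was -1.4, -0.64 and -1.33 in FXR-WT and 0.83, 1.22 and 1.02 in Y67F-FXR livers. The group means thus differed by 2.15 on the log2 scale. A two-sided exact permutation test gave p = 0.1, the smallest possible (0.125 after Benjamini-Hochberg adjustment over 5 pairs). That p was fixed in advance, because Hspa8 alone lay higher and Hspa5 alone lower in every Y67F-FXR liver.

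Dnajb1 against Dnajb11 went from -3.21 ± 0.325 to -1.66 ± 0.330, a difference of 1.55. The remaining pairs differed less between groups. Hsph1 against Hyou1 was at -1.58, -1.29 and -1.02 in FXR-WT and at -0.92, -0.86 and -0.73 in Y67F-FXR livers, a difference of 0.46. Hsp90ab1 against Hsp90b1 was at -0.08, 0.49 and 0.06 in FXR-WT and at 0.55, 0.64 and 0.64 in Y67F-FXR livers, a difference of 0.45. These 3 pairs did not overlap between groups, each with an exact permutation p = 0.1 (adjusted 0.125). For Dnajb1 against Dnajb11 that p was again fixed in advance, as Dnajb1 alone lay higher and Dnajb11 alone lower in every Y67F-FXR liver. Hsp90aa1 against Hsp90b1 was at -3.15 ± 0.267 and -3.30 ± 0.0806 with overlap, a difference of -0.15 (exact permutation p = 0.4).

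**Figure D3:**
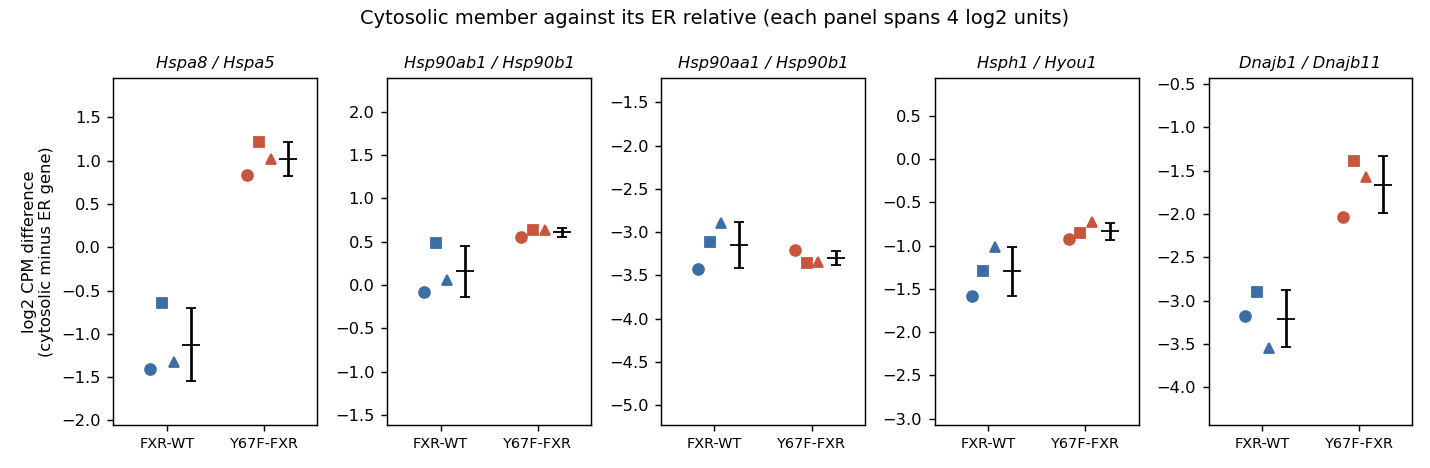
Difference in log2 CPM between each cytosolic gene and its ER relative in every liver, with the mean ± SD of each group; symbols mark replicates 1 to 3 and all panels span 4 log2 units. Hspa8 against Hspa5 crosses 0 between the groups, while Hsp90aa1 against Hsp90b1 overlaps.

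Cochaperones of HSP70 and HSP90 were taken as a further list of 22 genes, all tested, of which 13 lay lower and 9 higher in Y67F-FXR livers (median log2 fold change -0.17, and -0.08 without FXR-WT replicate 1). By edgeR's quasi-likelihood test 1 of them was called, against 0.972% of all tested genes. By DESeq2's Wald test 6 of them and 3 of the heat shock genes were called, all lower, against 1.73% of all tested genes. Stip1 (HOP), the adaptor that passes clients from HSP70 to HSP90, was the gene called by the quasi-likelihood test. It stood at 203, 158 and 193 CPM in FXR-WT and at 82.3, 86.4 and 89.6 CPM in Y67F-FXR livers, without overlap. Stip1 fell 2.15-fold, with a log2 fold change of -1.10 (SE 0.132, edgeR adjusted p = 0.0175), and the adjusted p was 0.0834 without FXR-WT replicate 3. No cochaperone was called without that liver, without Y67F-FXR replicate 1, without Y67F-FXR replicate 3 or with the replicate block.

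The next by p were Fkbp4 (FKBP52, an HSP90-bound prolyl isomerase of steroid receptor complexes) and Ahsa1 (AHA1, which stimulates the HSP90 ATPase). Fkbp4 was at 295, 236 and 260 CPM in FXR-WT and at 144, 157 and 174 CPM in Y67F-FXR livers (log2 fold change -0.73, edgeR adjusted p = 0.0557). Ahsa1 was at 169, 142 and 175 CPM and at 106, 95.5 and 106 CPM (log2 fold change -0.66, adjusted p = 0.0659). Neither overlapped between groups, and neither passed the test. In this list 7 genes had an unadjusted p under 0.05, all lower, against 6.67% of all tested genes.

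**Figure D4:**
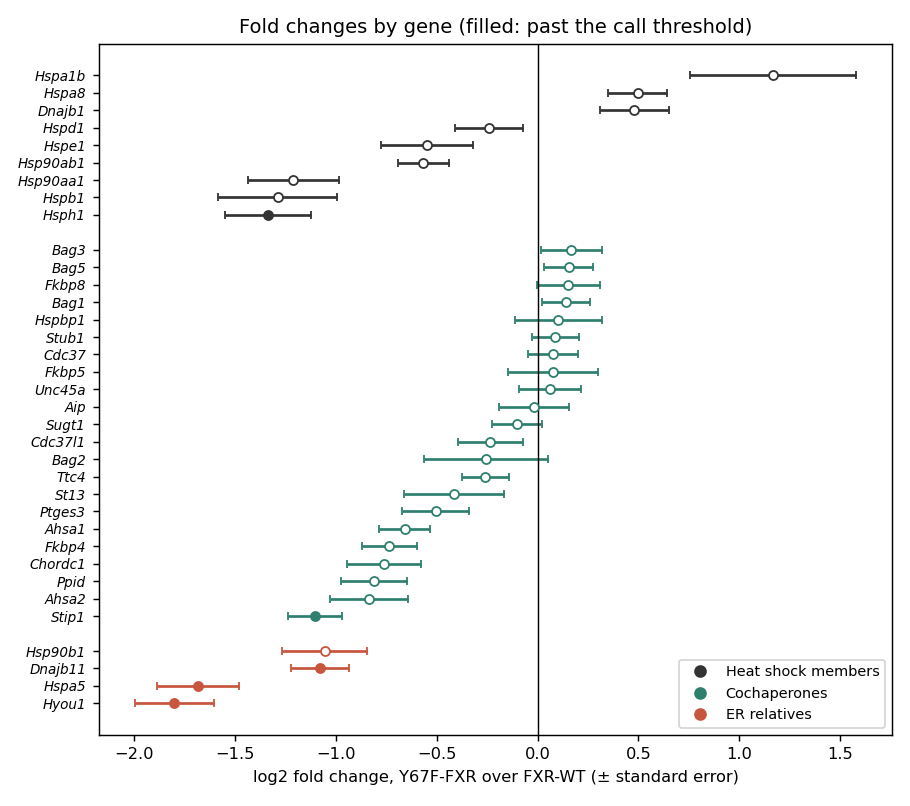
Fitted log2 fold change (Y67F-FXR over FXR-WT) with its standard error for the 9 tested heat shock genes, the 22 cochaperones and the 4 ER relatives; filled points were called. Hsph1, Stip1, Hspa5, Hyou1 and Dnajb11 are filled, and Hspa8, Dnajb1 and Hspa1b are the heat shock genes to the right of 0.

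No gene of the other chaperone lists outside the ER was called by edgeR's quasi-likelihood test, by its likelihood ratio test or by DESeq2. Of 7 cytosolic HSP70 and HSP110 relatives 5 lay lower, among them Hspa4 (log2 fold change -0.39, adjusted p = 0.167) and Hspa4l (-0.91, 0.256). Both are HSP110 proteins like Hsph1, and Hspa4l lay from -1.12 to -0.50 with a liver left out. Hspa2 lay higher (0.98, 0.268, and 0.72 to 1.45 with a liver left out). An unadjusted p under 0.05 was given to 2 relatives in each direction. Over all tested genes 6.67% were lower and 6.75% higher at that p, which also holds for the next lists. Of 11 cytosolic J proteins 9 lay lower, led by Dnajb2 (-0.42, adjusted p = 0.202), Dnajc21 (-0.44, 0.220) and Dnajc2 (-0.31, 0.259), with 4 lower and 1 higher at an unadjusted p under 0.05. The 4 tested small heat shock proteins stayed near 0, with Cryab at -0.22, Hspb8 at -0.08 and Hspb11 at -0.06, and all of them overlapped between groups, unlike Hspb1. TRiC, the cytosolic chaperonin, and prefoldin had 12 of 13 genes lower with a median of -0.14, where 5979 of all 12453 tested genes lay lower. That count was 9 without FXR-WT replicate 1 and 13 without FXR-WT replicate 3. Cct3 came first (-0.42, adjusted p = 0.150), ahead of Cct6a (-0.27, 0.349) and Cct7 (-0.33, 0.355), the 3 with an unadjusted p under 0.05.

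Mitochondrial chaperones and proteases lay close to 0, with a median log2 fold change of 0.06. Of these 15 genes 13 were higher in Y67F-FXR livers, but 7 with library totals as scaling and 8 without Y67F-FXR replicate 2. Hspa9, the mitochondrial HSP70, was at 830, 699 and 756 CPM in FXR-WT and at 783, 814 and 706 CPM in Y67F-FXR livers. Grpel2 (0.55, adjusted p = 0.351, and 0.31 to 0.72 with a liver left out), its nucleotide exchange factor, Lonp1 (0.23, 0.525) and Clpb (0.19, 0.638) had the smallest p, of which that of Grpel2 was under 0.05 unadjusted. Heat shock factors and their regulators gave no call in 5 tested genes, and 0 had an unadjusted p under 0.05. Hsf1 was at 17.7, 14.4 and 16.1 CPM in FXR-WT and at 13.0, 14.1 and 17.2 CPM in Y67F-FXR livers, with overlap, and Hsf2 (0.05) and Hsf2bp (-0.52, but -1.13 to -0.26 with a liver left out) did not pass either.

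By contrast, 10 of 20 ER chaperones were called, all lower, against 0.426% of all tested genes. Of the 20, 18 lay lower without overlap between groups, against 10.5% of all tested genes, with a median log2 fold change of -0.98. Beside Hspa5, Hyou1 and Dnajb11 they were Sdf2l1 (-2.89), Manf (-2.19), Creld2 (-2.07), Pdia4 (-1.35), Pdia6 (-1.15), Pdia3 (-1.07) and Calr (-0.90). None was called without FXR-WT replicate 3, nor without Y67F-FXR replicate 3, although the median was then -0.93 and -1.04.

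**Figure D5:**
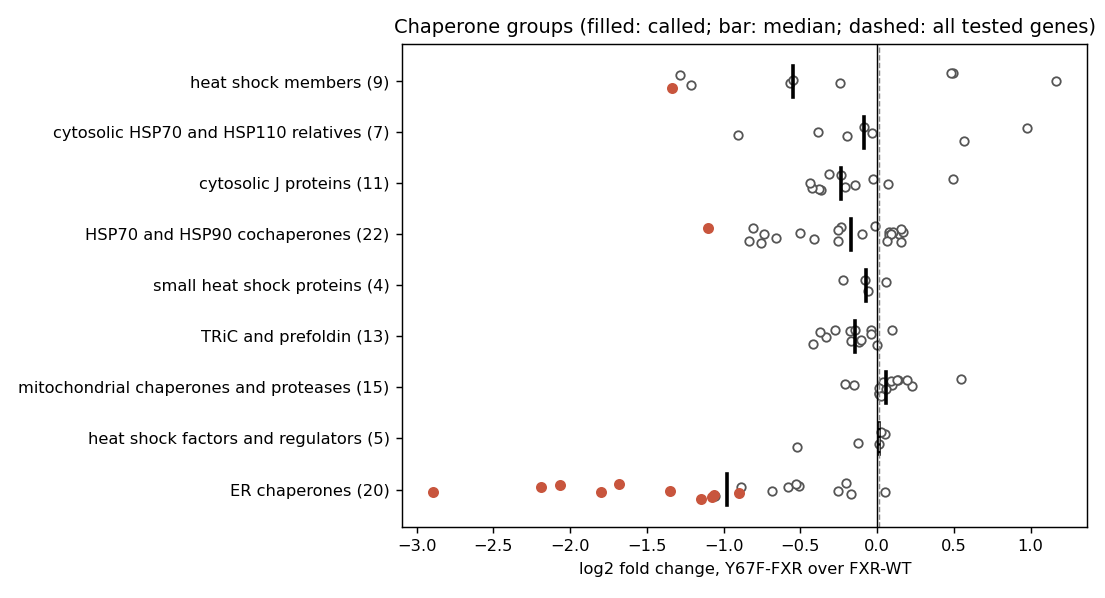
Fitted log2 fold change of every tested gene in the 9 chaperone lists (number tested in brackets), with filled points for called genes, bars for list medians and a dashed line for the median of all tested genes. The heat shock genes spread from -1.33 to 1.17, whereas the ER chaperones lie almost all below 0.

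Values that could bear on heat shock genes were read from lists of other cells and states. Stellate cell markers had 7 of 8 genes lower, with none called by edgeR's quasi-likelihood test at the main settings. DESeq2 size factors, no low-count filter, gene length offsets, the likelihood ratio test and DESeq2's Wald test each gave 1 called lower, where 54 to 226 of all genes were. These markers summed to 85.0 to 114 CPM in FXR-WT and 69.7 to 78.2 CPM in Y67F-FXR livers. They were led by Lrat (-1.15, adjusted p = 0.0540), Col1a1 (-0.77) and Acta2 (-1.95, but from -2.36 to -0.50 with a liver left out, with 202 reads in FXR-WT replicate 1 and 17 to 36 in the other livers). Clock genes had 9 of 11 higher, with none called, and summed to 479 to 580 CPM in FXR-WT and 626 to 647 CPM in Y67F-FXR livers, led by Nr1d1 (0.57, adjusted p = 0.138), Per1 (0.82) and Tef (0.35). Those 2 sums did not overlap between groups. At an unadjusted p under 0.05 there were 3 of 8 stellate genes, all lower, and 3 of 11 clock genes, all higher, against 6.67% and 6.75% of all tested genes. Their part in the values of the heat shock genes was not tested.

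Sums of the other marker lists overlapped between groups. Kupffer cell and leukocyte markers summed to 127 to 180 CPM in FXR-WT and 98.4 to 200 CPM in Y67F-FXR livers (6 of 10 lower, but 8 with library totals as scaling, 3 without Y67F-FXR replicate 1 and 9 without Y67F-FXR replicate 2), with S100a8 (-2.73, adjusted p = 0.0529), S100a9 (-1.95) and Cd3e (0.53, but 0.06 to 0.91 with a liver left out) first by p. Cholangiocyte markers summed to 46.2 to 71.2 and 54.1 to 60.6 CPM (4 of 5 tested higher, but 2 with library totals as scaling; Krt19, Krt7 and Epcam first by p), and endothelial markers to 161 to 191 and 165 to 174 CPM (3 of 6 lower, but 5 with library totals or without FXR-WT replicate 3; Lyve1, Stab2 and Clec4g first by p). Hepatocyte markers had 6 of 7 higher, but 3 with library totals as scaling and 4 when either FXR-WT replicate 3 or Y67F-FXR replicate 2 was left out, with Cps1 (0.12 to 0.66 with a liver left out), Tat (0.15 to 0.75) and Ttr (0.07 to 0.30) first by p. For erythrocytes Alas2 was measured (0.03 to 0.23 with a liver left out), and Hba-a1, Hba-a2, Hbb-b1 and Hbb-b2 were listed at 0 in all 6 livers. Hba-a1 and Hba-a2 share exon bases, as do Hbb-b1 and Hbb-b2, and reads matching several genes were dropped. Their 0 counts therefore do not measure globin RNA. Immediate early genes summed to 96.1 to 128 and 67.5 to 111 CPM (6 of 8 lower; Egr1 -2.06, adjusted p = 0.0547, Jun -0.49, and Atf3 -1.26, which lay from -1.79 to -0.56 with a liver left out). The cold-inducible Rbm3 (0.33) and Cirbp (0.22), which respond to temperature in the opposite sense to heat shock genes, did not pass the test. No gene of the lists of other cells and states was called by the quasi-likelihood test at the main settings. With gene length offsets it called 1 stellate, 2 Kupffer cell and leukocyte and 1 immediate early gene, all lower, while 124 of all genes were called lower. Without a filter on low counts it called 1 gene lower in each of these lists (81 of all genes). With DESeq2 size factors it called 1 stellate gene lower (54), and with library totals 1 Kupffer cell and leukocyte and 1 immediate early gene (68). DESeq2's Wald test called 1 stellate, 1 Kupffer cell and leukocyte and 1 immediate early gene, all lower, against 1.73% of all tested genes.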

How the data were processed

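Liver RNA was sequenced as paired-end reads of 100 bp. Per the labels and the file headers, the authors demultiplexed with bcl2fastq 2.17.1.14, trimmed with Trimmomatic 0.36, aligned with STAR 2.5.3a and counted over UCSC gene models of mm9 by featureCounts 1.4.6-p4. The deposited values are raw counts per gene; strand was ignored, each mate counted for itself, and a read matching several places or genes was dropped, which lowers genes with close copies. A deposited table of the authors' own comparison (fold changes and p-values) was not used.

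Tests were run with edgeR 4.0.16 (R 4.3.3; filterByExpr, TMM scaling, glmQLFit and glmQLFTest), limma 3.58.1 and DESeq2 1.42.0, and plotted with matplotlib 3.10.9. Standard errors come from the F statistic of the test. CPM and RPKM were computed from the counts, with a prior count of 2 for log2 CPM. The common biological coefficient of variation was 0.194. Replicates of a group differed by more than counting noise (median chi-square per gene 2.21 to 7.84), so each was kept. The fits were tested on simulated counts.

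Heat shock genes and lists were chosen with earlier results of these data known. All 10 genes, and from each list the 3 genes with the smallest p and any called gene, were named, with Hspa5, Hsp90b1, Hyou1, Dnajb11 and Nr1h4. Further values of Hspa9 and of the counted lists were named after they were seen. Pfdn6, Ciart, Tf, Adgre1, Hbb-bt and Hbb-bs had no row under those symbols. Alternatives were other scaling, tests, filters and thresholds, the replicate number as a block, offsets for gene length (loess, span 0.3), and each liver left out. Shared sequence was searched in GENCODE transcripts of GRCm38, and promoter sequences are those of RefSeq.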

Additional observations from a re-analysis of the deposited data

How the results depend on the processing

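No heat shock gene changed direction in any of the 14 alternatives. Of all genes, 53 were called lower and 68 higher. These counts were 216 and 215 with DESeq2's Wald test, 226 and 221 with edgeR's likelihood ratio test, 124 and 123 with gene length offsets, 401 and 382 at an unadjusted p under 0.05 with the same 1.5-fold minimum, 6 and 2 with the replicate block, from 7 to 33 and from 2 to 35 with a liver left out, and 68 and 52 with library totals as scaling; without a filter on low counts 81 were called lower and 86 higher. Scaling moved the median of all genes from 0.01 to -0.06 at most. Of the heat shock genes 1 was called lower, and this was 3 with DESeq2's Wald test (Hsph1, Hsp90aa1 and Hspb1), 3 with the likelihood ratio test, 2 without a filter, 2 with length offsets, 3 at an unadjusted p with the same fold minimum, 0 with the replicate block (Hsph1 adjusted p = 0.0796) and from 0 to 2 with a liver left out. None was called higher, except Hspa1b at an unadjusted p with the same fold minimum. The same replicate numbers did not go together (correlations of deviations -0.52, -0.08 and 0.12), so the numbers were not taken as pairs; ER chaperones had 2 calls with the block. Differences between cytosolic and ER relatives kept their direction with a liver left out, though not always their size: 2.01 to 2.39 for Hspa8, 0.33 to 0.62 for Hsp90ab1, -0.29 to -0.03 for Hsp90aa1, 0.32 to 0.60 for Hsph1 and 1.38 to 1.73 for Dnajb1. With 3 livers a group, an exact test over livers cannot pass 0.05, and Hspa1a had too few counted reads to compare.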

Other observations

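The 9 tested heat shock genes were averaged, each as its log2 CPM minus its own mean over the 6 livers. Among genes outside all lists with a mean of at least 5 CPM, the patterns most like this average were those of Papss1 (r = 0.99), Ctr9 (0.99), Fgg (0.98), Afm (0.98) and Zrsr2 (0.98). The average itself had r = 0.93 with Hsph1, 0.91 with Hspb1 and -0.69 with Hspa8, so it mostly follows the genes that lay lower in Y67F-FXR livers. These correlations run over 6 livers that share 2 group means, and they are given as a description with no test.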
